A study of Homo sapiens with 24 samples.

Results

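The genes described here encode subunits of RNA polymerase III (Pol III) and were followed in BT549, an established human triple negative breast cancer cell line. They are POLR3A, POLR3B, POLR3C, POLR3D, POLR3E, POLR3F, POLR3G, POLR3GL and POLR3K, 9 of 18151 gene symbols in the deposited tables. The genes were taken by symbol and were selected on their values in the knockdown experiment, in particular that of POLR3G, so the knockdown values are given as a description without a test. MYC was knocked down for 72 h with pooled siRNAs in the siMYC group, which has siCtl as its control, of unstated duration. The inhibitor experiment has the groups KJ-PYR-9+DEX, KJ-PYR-9, DEX and vehicle (VEH), where KJ-PYR-9, which blocks the pairing of MYC with MAX, was given at 40 µM for 3 h. What DEX stands for, its dose and its duration are not given. In the MB-3 experiment, 100 µM of the GCN5 acetyltransferase inhibitor MB-3 was given for 3 h (MB3) and set against its own vehicle (VEH2). The genotype label is WT throughout, and all 8 groups are the same cell line with 3 libraries each. Replicates are labelled as biological, but the labels do not say how the cultures were separated, so p-values measure the spread between these libraries.

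Pol III transcribes short noncoding RNAs, among them tRNAs, 5S ribosomal RNA, U6 spliceosomal RNA and the RNA of the signal recognition particle. POLR3A and POLR3B form the catalytic core. POLR3D and POLR3E form a dimer that acts in initiation and termination, POLR3K acts in RNA cleavage and termination, and POLR3C and POLR3F form a unit with either POLR3G or POLR3GL that takes part in promoter opening and contacts the initiation factor TFIIIB. POLR3G and POLR3GL are paralogues that replace each other in the enzyme, POLR3G being known from pluripotent and tumour cells and POLR3GL from differentiated cells. MYC is known to bind TFIIIB and to stimulate Pol III transcription.

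The promoter sequences of 7 of the 9 genes were found in a RefSeq table (build GRCh38.p14), with 9 entries in all. POLR3G and POLR3D had no entry there. Windows of 300 bases, from 250 bases before to 50 bases after the annotated start, were searched on both strands for CACGTG, the E-box that MYC and MAX bind. It is its own reverse complement. It was in the windows of POLR3A, POLR3E and 1 of the 2 entries of POLR3C, and in none of the windows of POLR3B, POLR3F, POLR3GL and POLR3K, against 7.26% of 35116 entries in the table. Distances run from the first base of the motif to the annotated start, so the motif of POLR3E spans the start. The first 270 bases are shown for POLR3A, POLR3C, POLR3E and POLR3GL, the alternative to POLR3G. They run 5′ to 3′ on the strand of the gene, with the motif in capitals. They are chr10:78029496-78029765 on the minus strand for POLR3A, with the motif 35 bases before the start, chr1:145823950-145824219 on the plus strand for POLR3C, with the motif 196 bases before the start, chr16:22297159-22297428 on the plus strand for POLR3E, with the motif 1 base before the start, and chr1:145964440-145964709 on the plus strand for POLR3GL.
POLR3A: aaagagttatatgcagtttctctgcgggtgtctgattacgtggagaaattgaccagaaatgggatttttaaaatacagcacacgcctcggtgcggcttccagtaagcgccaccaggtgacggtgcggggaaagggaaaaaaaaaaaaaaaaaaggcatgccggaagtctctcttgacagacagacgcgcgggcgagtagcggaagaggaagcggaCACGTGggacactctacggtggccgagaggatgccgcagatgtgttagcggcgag
POLR3C: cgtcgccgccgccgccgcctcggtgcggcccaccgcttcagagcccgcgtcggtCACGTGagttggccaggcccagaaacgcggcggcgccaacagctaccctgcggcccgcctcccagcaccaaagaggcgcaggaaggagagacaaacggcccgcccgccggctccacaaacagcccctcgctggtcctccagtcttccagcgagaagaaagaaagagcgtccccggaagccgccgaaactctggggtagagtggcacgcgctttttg
POLR3E: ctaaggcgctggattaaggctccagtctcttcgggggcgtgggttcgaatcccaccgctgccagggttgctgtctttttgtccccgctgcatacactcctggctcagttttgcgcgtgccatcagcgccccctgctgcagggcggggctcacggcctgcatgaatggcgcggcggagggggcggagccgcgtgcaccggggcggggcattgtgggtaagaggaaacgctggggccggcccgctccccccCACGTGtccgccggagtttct
POLR3GL: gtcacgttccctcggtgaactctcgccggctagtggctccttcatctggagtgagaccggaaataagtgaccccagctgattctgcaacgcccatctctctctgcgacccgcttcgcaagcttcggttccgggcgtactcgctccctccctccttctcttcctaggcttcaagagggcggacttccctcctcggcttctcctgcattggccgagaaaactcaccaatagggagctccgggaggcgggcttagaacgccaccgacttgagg

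A match is a stretch of letters and no measure of binding, which these libraries do not hold. The values of these 4 genes stand in the comparisons below. Of the 7 genes searched, POLR3A, POLR3C and POLR3E, which hold the motif, had higher means with KJ-PYR-9 than with vehicle, and so did POLR3K, which does not, while POLR3B, POLR3F and POLR3GL, which do not hold it, had lower means. Nothing is drawn from this about the factors that bind it.

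The unit of all levels is the normalized read count that the submitters deposited, and log2 differences are the first group minus the second on log2(value + 1), with the standard error (SE). Means carry the standard deviation (SD, n = 3). Knockdown libraries hold between 18.77 and 24.15 M recovered reads each. Inhibitor libraries range more widely, with 5.582 M in the shallowest and 30.76 M in the deepest. For MB-3 the bounds are 8.306 and 19.96 M, counted over the genes its table keeps. The genes VIM, FN1 and CDH2, which mark mesenchymal breast cancer lines, averaged 22164, 5663 and 4889 in siCtl, against 90.0 for the epithelial cadherin CDH1 and 27.6 for the leukocyte gene PTPRC. MYC itself measured 1655, 1789 and 1710.3 in siMYC, against 2313, 2269 and 2138 in siCtl. Every siMYC library lay below every siCtl library, but the log2 difference of -0.38 ± 0.11 did not pass the threshold (limma adjusted p = 0.0587). MYC averaged 4160.2 in KJ-PYR-9+DEX, 9853 in KJ-PYR-9, 18424 in DEX and 1806 in VEH. All 10 genes of an interferon response list were called higher in siMYC, against 1679 of all 14788 genes tested. Their median log2 difference was 4.26, against 0.05 for all genes. The list was chosen with earlier results of these data known, so this is a description. The part of that response in the knockdown values was not tested.

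The abundance of the subunit transcripts differed among the genes, also per kilobase of their longest coding transcript. In siCtl, POLR3C was highest with 639.8 ± 17.7 normalized counts per kilobase, and POLR3D followed with 479 ± 4.97. POLR3A had 303 ± 30.8 and POLR3E 230.2 ± 2.71 per kilobase. The ranges of these 4 genes did not overlap between neighbours in the order. Below them came POLR3K with 176 ± 26.8 and POLR3F with 158 ± 21.4 per kilobase, whose ranges overlapped. POLR3G with 107 ± 20.0, POLR3B with 96.8 ± 13.8 and POLR3GL with 69.1 ± 20.5 per kilobase closed the order, and each overlapped its neighbour among the 3. In siMYC the order was the same for the 4 highest, but POLR3G stood in the last place with 30.2 ± 11.5 per kilobase, below POLR3B with 65.6 ± 13.0 and without overlap. POLR3GL stood above both with 88.8 ± 22.9 per kilobase, overlapping POLR3B.

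**Figure D1:**
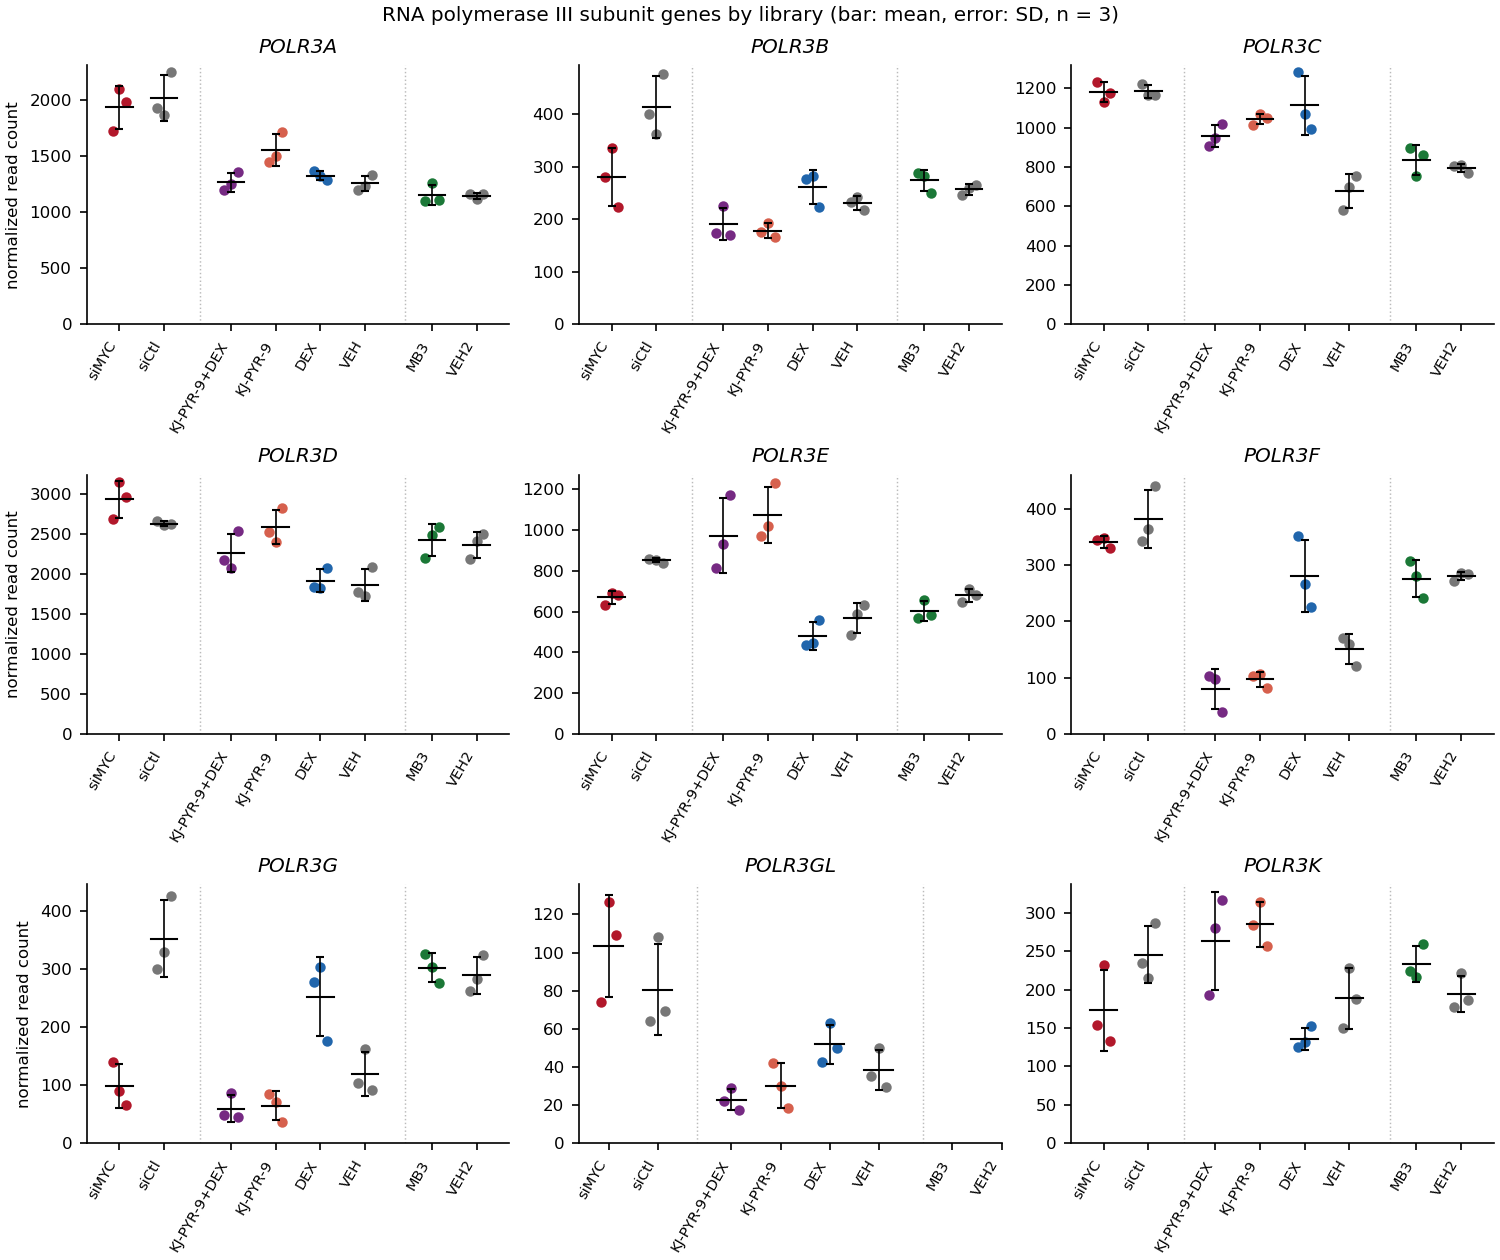
Normalized read counts (vertical axes, from 0) of each subunit gene in the 24 libraries, by group along the horizontal axis; points are libraries, long bars means and error bars SD. POLR3G is lowest in siMYC, KJ-PYR-9+DEX and KJ-PYR-9, POLR3E and POLR3K are high in both KJ-PYR-9 groups, and the MB3 and VEH2 libraries overlap for each of the 8 genes analysed there. POLR3GL was not analysed in the MB-3 experiment, so its panel has no points there.

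After MYC knockdown POLR3G stood apart from the other subunits. It measured 141, 90.0 and 66.7 in siMYC, against 300.4, 329 and 426 in siCtl. The highest siMYC library was less than the lowest siCtl library, and the means were 99.1 ± 37.8 and 352 ± 65.6. The log2 difference was -1.87 ± 0.28. Its alternative POLR3GL measured 74.3, 127 and 109 in siMYC, against 64.2, 108 and 69.4 in siCtl. These groups overlapped, with a log2 difference of 0.36 ± 0.27. Both genes rest on modest numbers of reads in siMYC, 72 to 142 per library for POLR3G and 75 to 145 for POLR3GL.

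Among the catalytic subunits, POLR3B measured 281, 335 and 224 in siMYC, against 401, 362 and 478 in siCtl. The groups did not overlap, and the log2 difference was -0.57 ± 0.19. POLR3A, its partner, measured 1725, 2098 and 1976 in siMYC, against 1927, 1868 and 2248 in siCtl, with overlap and a log2 difference of -0.06 ± 0.14.

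The transcripts of POLR3D and POLR3E, partners in a dimer, differed in opposite directions. POLR3E measured 632, 693 and 682 in siMYC, against 859, 855 and 839.6 in siCtl, a log2 difference of -0.35 ± 0.11 without overlap. POLR3D measured 2685, 3151 and 2957 in siMYC, against 2661, 2609.8 and 2618 in siCtl, a log2 difference of 0.15 ± 0.12, also without overlap. POLR3K averaged 173 ± 52.6 in siMYC and 245 ± 37.3 in siCtl, with overlap. POLR3C averaged 1178 ± 50.9 in siMYC and 1184 ± 32.8 in siCtl, and POLR3F averaged 341 ± 10.3 in siMYC and 382 ± 51.6 in siCtl. The partners of POLR3G in its unit thus had log2 differences of -0.01 ± 0.11 and -0.15 ± 0.13. Over all genes, 16.1% of 14788 passed the test in this comparison, and nothing is read from that share for genes that were chosen with it in view.

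A pair of measurements bears on the POLR3G value. The exons of POLR3G share 260 of their 4019 bases with MBLAC2 on the opposite strand, and the strandedness of the libraries is not given. MBLAC2 measured 224, 154 and 124 in siMYC, against 395, 354 and 431 in siCtl, a log2 difference of -1.27 ± 0.23. It was added for its overlap with POLR3G after its values were seen, so it is described without a test. Unless the libraries are stranded, reads of the 2 genes over the shared bases cannot be told apart. POLR3G also has the lowest GC content of the 9 transcripts, 34.3%, and 2 siMYC libraries had a trend of all genes with GC content, log2 0.39 and 0.30 per 10 percentage points, against -0.04 to 0.04 in siCtl. With such trends in GC content and length removed from each library, the POLR3G difference was -1.36. The trend of the third siMYC library, siMYC 1, was 0.041, against a highest siCtl value of 0.036. Its POLR3G value of 141 was the highest in siMYC, and nothing is drawn from this 1 library. The part of GC content in the POLR3G value was not tested.

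KJ-PYR-9 alone was accompanied by higher levels of 4 subunit genes, while POLR3B, POLR3F, POLR3G and POLR3GL had lower means that did not pass the test. POLR3E and POLR3D, POLR3C and POLR3K rose, 4 of 9 genes called higher and 0 lower. Over all 13616 genes tested, 42.9% were called, 25.4% higher and 17.5% lower, so the share of subunit genes called is near that of all genes. On recovered reads edgeR called 7 of the 9, adding POLR3B, POLR3F and POLR3G as lower, and DESeq2 8, adding POLR3A as higher too, against 51.9% and 53.1% of all genes, and the higher and lower calls of all genes were 3406 and 3655 with edgeR, against 3455 and 2380 with limma. POLR3E measured 970.3, 1018 and 1229 with KJ-PYR-9, against 486, 589.5 and 629.9 with vehicle. It was higher in every treated library, by a log2 difference of 0.92 ± 0.18 (limma adjusted p = 0.00351).

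POLR3D, the partner of POLR3E, measured 2527, 2405 and 2819 with KJ-PYR-9, against 1775, 1724 and 2085 with vehicle. The groups did not overlap, and the log2 difference was 0.47 ± 0.13 (limma adjusted p = 0.0162). This call was lost without library KJ-PYR-9 3, VEH 1 or VEH 2 (adjusted p of 0.0703, 0.0588 and 0.0617). POLR3C measured 1013, 1067 and 1050.4 with KJ-PYR-9, against 580.1, 699 and 753 with vehicle, a log2 difference of 0.63 ± 0.14 (limma adjusted p = 0.00587). The treated libraries again lay above all vehicle libraries.

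POLR3K, the subunit of RNA cleavage, measured 284, 314 and 256 with KJ-PYR-9, against 149.9, 228 and 188 with vehicle. The groups did not overlap, with a log2 difference of 0.61 ± 0.20 (limma adjusted p = 0.0342). Its call is fragile. It was lost without library KJ-PYR-9 1, 2 or 3 or without VEH 1 or VEH 3, with adjusted p from 0.0577 to 0.134, and with TMM scaling it was 0.0539. POLR3K shares 153 of its 1889 exon bases with SNRNP25 on the opposite strand. SNRNP25 averaged 604 ± 43.6 with KJ-PYR-9 and 369 ± 68.2 with vehicle, a log2 difference of 0.72 (limma adjusted p = 0.00577). POLR3F shares 155 of its 2928 exon bases with DZANK1, also on the opposite strand, which averaged 32.4 over the inhibitor libraries.

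POLR3G measured 84.7, 71.9 and 36.5 with KJ-PYR-9, against 104, 163 and 92.2 with vehicle. All treated libraries were below all vehicle libraries, and the log2 difference was -0.93 ± 0.36 (limma adjusted p = 0.0592, 95% interval -1.72 to -0.13). It passed with TMM scaling (limma adjusted p = 0.042) and on recovered reads (0.0186 with edgeR and 0.0117 with DESeq2). Its alternative POLR3GL measured 42.0, 30.3 and 18.6 with KJ-PYR-9, against 35.6, 49.99 and 29.7 with vehicle, with overlap and a log2 difference of -0.37 ± 0.30 (limma adjusted p = 0.319). POLR3F averaged 97.0 ± 13.2 with KJ-PYR-9 and 151 ± 26.7 with vehicle, a log2 difference of -0.62 ± 0.32 (limma adjusted p = 0.137). The catalytic subunits POLR3A and POLR3B had differences of 0.30 ± 0.12 and -0.37 ± 0.15 (limma adjusted p = 0.0539 and 0.0587).

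Libraries that share a replicate number deviated together in this experiment, and with the number as a block 8 of the 9 genes were called, against 58% of all genes. The 4 that the block added were POLR3A, higher (limma adjusted p = 0.0174), and POLR3B, POLR3F and POLR3G, lower (0.00938, 0.0269 and 0.00526). Removing the GC content and length trends left the calls of POLR3C, POLR3D, POLR3E and POLR3K in place, with log2 differences of 0.65, 0.41, 0.78 and 0.83, while POLR3G came to 0.05 (limma adjusted p = 0.92).

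**Figure D2:**
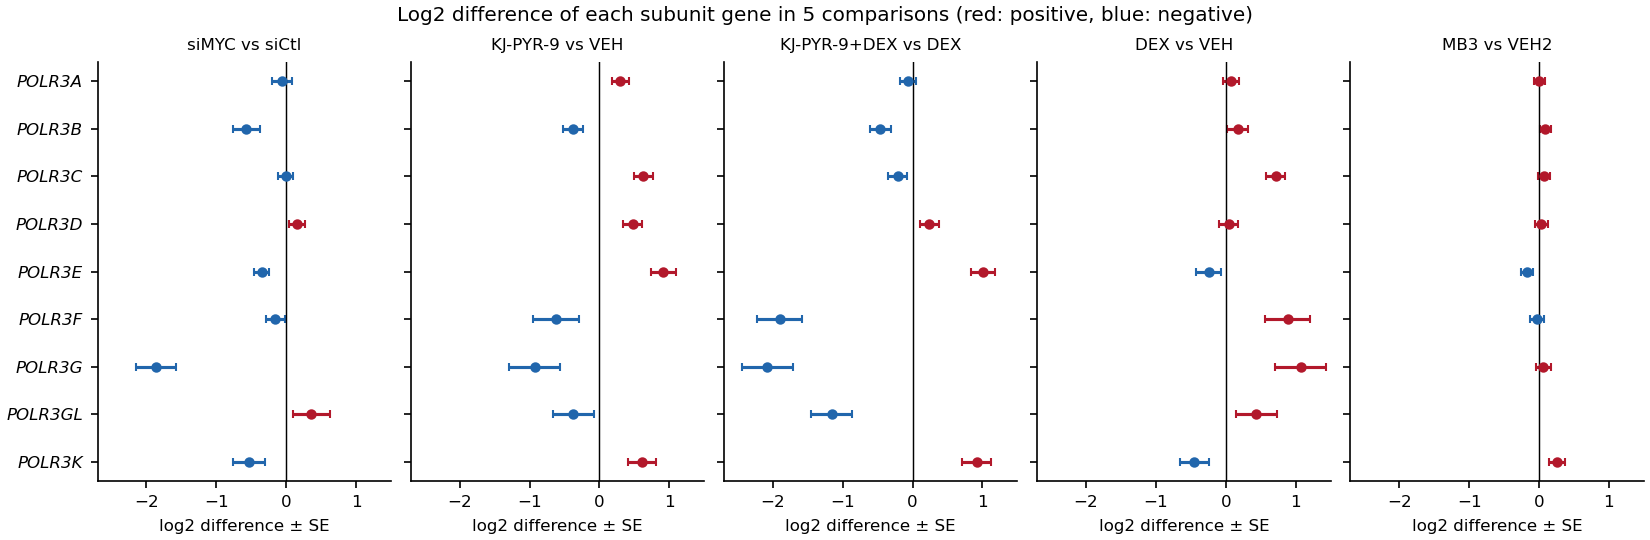
Log2 difference (horizontal axes) of each subunit gene (rows) in 5 comparisons, with bars of 1 SE; the first group named in each panel minus the second. POLR3E and POLR3K are positive in both KJ-PYR-9 comparisons, POLR3G is negative in siMYC and in both KJ-PYR-9 comparisons, and all MB3 differences lie between -0.17 and 0.26.

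In the presence of DEX, KJ-PYR-9 was accompanied by changes in the transcripts of 6 subunit genes, which went in both directions. POLR3E and POLR3K rose, and POLR3B, POLR3F, POLR3G and POLR3GL fell, so 2 of 9 were called higher and 4 lower. Of all 13616 genes 68.7% were called, 33.6% higher and 35.1% lower, and the share of subunit genes called is again near that of all genes. On recovered reads edgeR and DESeq2 called 6 of 9 each, against 67% and 67.6% of all genes, and the replicate block gave 7, against 75.3%. The comparison of KJ-PYR-9+DEX with DEX shares no library with that of KJ-PYR-9 with vehicle, although both come from the same fit of 12 libraries.

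Among the transcripts of the unit of POLR3C, POLR3F and POLR3G or POLR3GL, that of POLR3C was not called. Protein was not measured. POLR3G measured 48.1, 86.4 and 45.2 in KJ-PYR-9+DEX, against 278, 304 and 175 in DEX, a log2 difference of -2.08 ± 0.36 (limma adjusted p = 0.000641). POLR3F measured 102, 96.8 and 39.3 in KJ-PYR-9+DEX, against 351, 266 and 224 in DEX, a log2 difference of -1.90 ± 0.32 (limma adjusted p = 0.00057). Both genes were lower in every KJ-PYR-9+DEX library than in any DEX library. POLR3GL measured 22.1, 28.8 and 17.7 in KJ-PYR-9+DEX, against 42.7, 62.9 and 50.1 in DEX, a log2 difference of -1.16 ± 0.30 (limma adjusted p = 0.00512). Its groups did not overlap either, but it rests on 9 to 25 reads per KJ-PYR-9+DEX library. POLR3C measured 905, 948 and 1018 in KJ-PYR-9+DEX, against 1281, 1066 and 993 in DEX, with overlap and a log2 difference of -0.21 ± 0.14 (limma adjusted p = 0.19, 95% interval -0.52 to 0.09).

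POLR3E measured 812, 929.7 and 1171 in KJ-PYR-9+DEX, against 436, 444 and 561 in DEX, a log2 difference of 1.01 ± 0.18 (limma adjusted p = 0.000648). POLR3K measured 193, 279.9 and 316 in KJ-PYR-9+DEX, against 125, 131 and 152 in DEX, a log2 difference of 0.92 ± 0.20 (limma adjusted p = 0.00245). Both were higher in every KJ-PYR-9+DEX library. SNRNP25, the gene opposite POLR3K, averaged 534 ± 55.8 in KJ-PYR-9+DEX and 259 ± 30.8 in DEX. POLR3D, the partner of POLR3E, had a log2 difference of 0.24 ± 0.13 with overlap (limma adjusted p = 0.129), and passed with the replicate block (0.0168).

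POLR3B measured 175, 226 and 171 in KJ-PYR-9+DEX, against 278, 283 and 224 in DEX, a log2 difference of -0.46 ± 0.15 (limma adjusted p = 0.0162). The groups overlapped in 1 library each, and the call was lost without DEX 1, DEX 2, KJ-PYR-9+DEX 1 or KJ-PYR-9+DEX 3, with adjusted p from 0.0516 to 0.0608. POLR3A had a log2 difference of -0.07 ± 0.12 (limma adjusted p = 0.621). With GC content and length trends removed, POLR3B came to 0.022 (limma adjusted p = 0.898) and POLR3G to -0.40 (0.299), while POLR3F at -1.06, POLR3GL at -1.04, POLR3E at 0.72 and POLR3K at 1.39 kept their calls, and POLR3A at -0.27 passed (limma adjusted p = 0.0392).

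DEX alone was accompanied by a rise of POLR3C, 1 of 9 genes called, against 17.5% of all genes in either direction and 9.5% higher. On recovered reads edgeR and DESeq2 called 3 genes each, POLR3C, POLR3F and POLR3G, all higher, against 21.4% and 27.4% of all genes. POLR3C measured 1281, 1066 and 993 with DEX, against 580.1, 699 and 753 with vehicle, a log2 difference of 0.72 ± 0.14 (limma adjusted p = 0.0079) without overlap. POLR3G measured 278, 304 and 175 with DEX, against 104, 163 and 92.2 with vehicle, also without overlap, but the log2 difference of 1.07 ± 0.36 did not pass (limma adjusted p = 0.062). POLR3F was likewise higher in every DEX library, by 0.88 ± 0.32 (limma adjusted p = 0.0779). With the replicate block POLR3G and POLR3F passed (0.00593 and 0.0105), which gave 3 of 9 genes, against 43.5% of all genes. With GC content and length trends removed they were 0.39 and 0.51 and did not pass, and POLR3C was 0.67 (limma adjusted p = 0.00554). Because the DEX libraries enter both this comparison and that of KJ-PYR-9+DEX with DEX, the opposite signs of POLR3F and POLR3G in them are not independent.

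The response of POLR3C to KJ-PYR-9 differed with DEX. The KJ-PYR-9 effect with DEX minus that without was -0.84 ± 0.20 for POLR3C (limma adjusted p = 0.0143), 1 of 9 genes called, against 16.8% of all genes in either direction and 9.62% lower. DESeq2 called 2, POLR3C and POLR3F, against 20.9% of all genes. POLR3C averaged 957 ± 57.2 in KJ-PYR-9+DEX, 1043 ± 27.6 in KJ-PYR-9, 1113 ± 149.9 in DEX and 677 ± 88.6 in VEH, so the 3 treated groups lay near each other and above vehicle. The same VEH libraries enter this difference, KJ-PYR-9 against VEH and DEX against VEH, so the POLR3C calls in them are not independent. The value was -0.77 (limma adjusted p = 0.0101) with GC content and length trends removed. With the replicate block POLR3F at -1.28 and POLR3G at -1.15 passed as well (limma adjusted p = 0.0109 and 0.0192), 3 of 9 genes, against 32.3% of all genes.

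The balance of the alternative subunits was followed as log2 POLR3G minus log2 POLR3GL in each library. In the knockdown experiment it was 0.91, -0.49 and -0.70 in siMYC, against 2.21, 1.60 and 2.60 in siCtl. All siMYC libraries lay below all siCtl libraries, and the means were -0.09 ± 0.88 and 2.14 ± 0.50. The mean difference of -2.23 was -1.72 with GC content and length trends removed, and -2.73 to -1.92 when 1 library was left out at a time. Per kilobase, POLR3G stood at 0.38 ± 0.25 times POLR3GL in siMYC and at 1.64 ± 0.55 times in siCtl. POLR3GL shares 382 of its 1799 exon bases with AC243547.3, a protein-coding gene on the same strand that has no value in the deposited tables. The part of this overlap in the ratio was not tested.

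In the inhibitor experiment the log2 ratio was 1.09, 1.55 and 1.31 in KJ-PYR-9+DEX, 0.99, 1.22 and 0.93 in KJ-PYR-9, 2.67, 2.25 and 1.79 in DEX and 1.52, 1.68 and 1.60 in VEH. Each KJ-PYR-9 group lay below its own control without overlap. The KJ-PYR-9 effect averaged over both levels of DEX was -0.74, made of -0.92 with DEX and -0.55 without, and p was 0.005 in an exact two-sided permutation test, the smallest that its 400 relabelings can give. With relabelings within replicate numbers p was 0.03125, the smallest of 64. This direction did not survive a change of processing. With GC content and length trends removed from each library, a step chosen after seeing the data, the averaged effect was 0.51 (exact permutation p = 0.015), made of 0.64 with DEX and 0.38 without. The POLR3G transcript has a GC content of 34.3% and that of POLR3GL 48.5%, and the trend of all genes with GC content was log2 0.36 to 0.80 per 10 percentage points in KJ-PYR-9+DEX, 0.48 to 0.65 in KJ-PYR-9, -0.59 to -0.16 in DEX and -0.07 to 0.12 in VEH. The ratio also rests on 9 to 131 reads of POLR3GL per library.

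**Figure D3:**
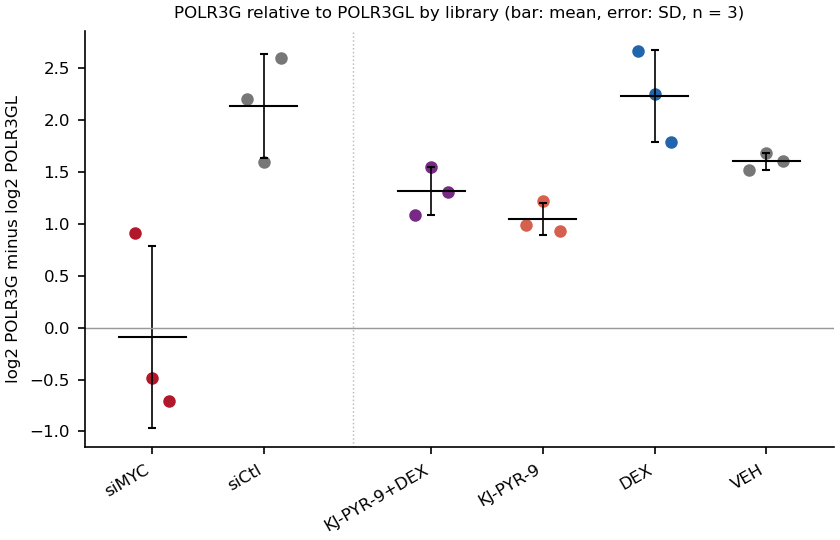
Log2 POLR3G minus log2 POLR3GL (vertical axis) in the knockdown and inhibitor libraries by group; points are libraries, bars means and error bars SD. The siMYC libraries lie between -0.70 and 0.91, below siCtl at 1.60 to 2.60, and both KJ-PYR-9 groups lie below their controls before any correction for GC content.

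The differences of the subunit genes went with transcript GC content, with opposite signs in the KJ-PYR-9 comparisons and in DEX against VEH. Across the 9 genes, Pearson's r between the log2 difference and transcript GC content was 0.83 in siMYC against siCtl, 0.80 in KJ-PYR-9 against VEH, 0.73 in KJ-PYR-9+DEX against DEX and -0.64 in DEX against VEH. Over all genes it was 0.33, 0.66, 0.77 and -0.54 in the same order. For MB3 against VEH2 it was -0.30 across the 8 genes analysed and -0.59 over all genes. In siMYC against siCtl Spearman's rho across the 9 genes was 0.55, and POLR3G, which was selected on that comparison, is both the lowest in GC content and the lowest in difference. These are descriptions across genes that share libraries, and genes are not independent replicates. POLR3G at 34.3%, POLR3F at 41.7% and POLR3B at 44.0% were the genes lowest in GC content, and POLR3E at 51.3% was the highest. POLR3K at 45.3% and POLR3GL at 48.5% did not follow the order, POLR3K being among the highest differences and POLR3GL below genes of like GC content in both KJ-PYR-9 comparisons.

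**Figure D4:**
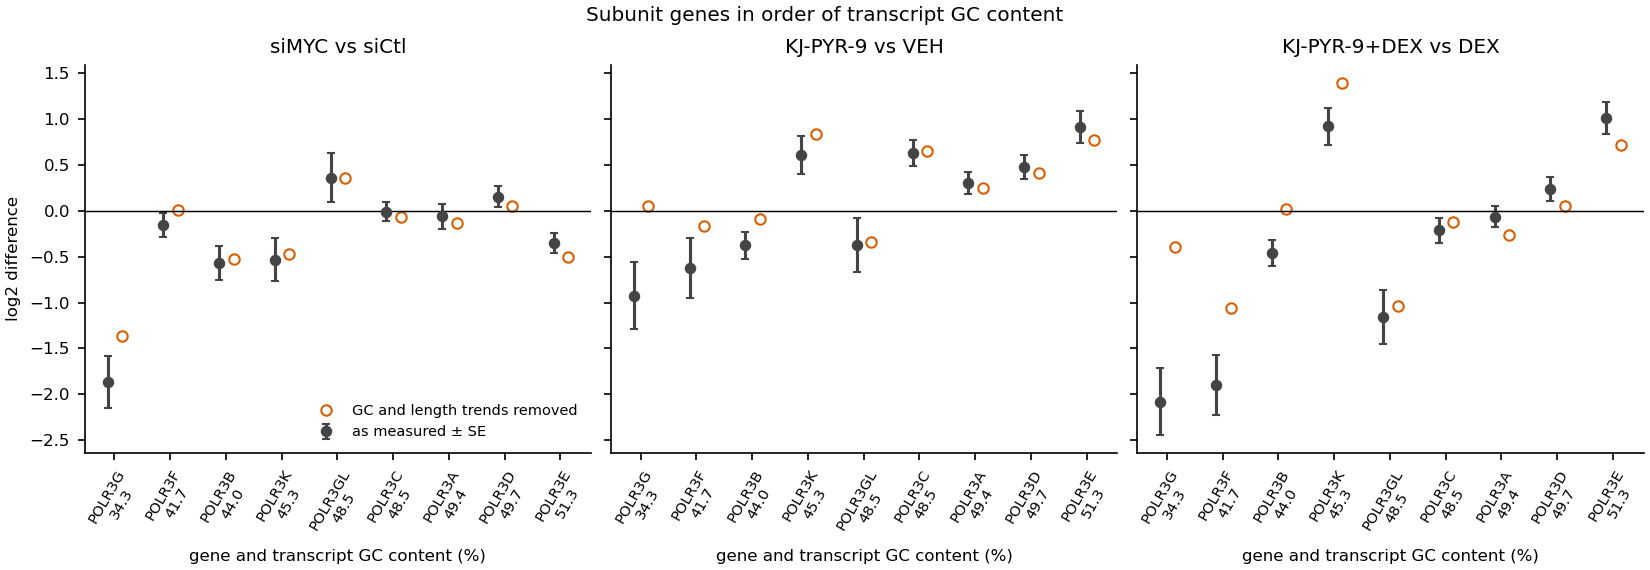
Log2 difference (vertical axis) of the subunit genes, placed in order of transcript GC content (percent, under each name), as measured with bars of 1 SE (filled) and with GC content and length trends removed from each library (open). With the trends removed POLR3G stands at 0.05 instead of -0.93 in KJ-PYR-9 against VEH and at -0.40 instead of -2.08 in KJ-PYR-9+DEX against DEX, but at -1.36 in siMYC against siCtl, while POLR3E and POLR3K stay positive in both KJ-PYR-9 comparisons.

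MB-3 was not accompanied by a detected change of any subunit gene. None of the 8 genes analysed passed limma's test, against 0.0597% of all 10048 genes, and 1 of 8 had an unadjusted p under 0.05, against 1377 of all genes. On recovered reads edgeR and DESeq2 also called 0 of 8, against 0.159% and 1.53% of all genes. POLR3G measured 325, 303 and 276 with MB3, against 261, 282 and 323 with VEH2. The groups overlapped, and the log2 difference was 0.06 ± 0.10 with a 95% interval of -0.18 to 0.30. POLR3K, the gene with an unadjusted p under 0.05, measured 224, 217 and 259 with MB3, against 177, 221 and 186 with VEH2, a log2 difference of 0.26 ± 0.11 (limma adjusted p = 0.355). POLR3E had -0.17 ± 0.08 (limma adjusted p = 0.396), and the other 6 genes lay between -0.03 and 0.09. POLR3GL was not analysed in that table, which holds genes with a mean of at least 83.9.

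The genes around the enzyme were described from lists. CRCP is a further subunit of the enzyme and part of its stalk. After MYC knockdown it did not pass the test, and none of the 7 subunits shared with other polymerases did, against 16.1% of all genes. Among 16 initiation factors only SNAPC2, of the complex that recruits Pol III to the U6 gene, was called, higher by 0.50. BDP1, the TFIIIB subunit, measured 2859, 1048 and 1460.0 in siMYC, against 3126, 3060.0 and 2912 in siCtl, with no overlap and no call. Of the 6 subunits of RNA polymerase I, POLR1E at -0.92, POLR1F at -1.05 and POLR1H at -0.63 fell, with a list median of -0.57, against medians of -0.15 for the 9 Pol III genes, -0.02 for 7 subunits of RNA polymerase II and 0.05 for all genes. Of 15 genes of tRNA end processing and export, POP1 at -0.61 and RPP40 at -0.84, both of RNase P, fell and RPP25 at 0.58 rose.

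With KJ-PYR-9 the share of the initiation factors called was near that of all genes. Of the 16, 4 rose and 4 fell against vehicle, where 42.9% of all genes were called, and 6 rose and 5 fell in KJ-PYR-9+DEX against DEX, where 68.7% were. BRF2, the TFIIIB subunit of U6 type promoters, had log2 differences of 0.40 ± 0.14 and 0.58 ± 0.14 (limma adjusted p = 0.034 and 0.00322) in these comparisons. BDP1 had -0.86 ± 0.25 and -1.71 ± 0.25 (limma adjusted p = 0.0206 and 0.000301). GTF3C6, of the complex TFIIIC that binds tRNA genes, had -1.21 ± 0.37 and -1.55 ± 0.37 (limma adjusted p = 0.0231 and 0.00357). MAF1, the repressor of Pol III, rose by 0.65 ± 0.18 and 0.82 ± 0.18 (limma adjusted p = 0.0163 and 0.00241). CRCP fell by 0.42 on the log2 scale in KJ-PYR-9 against VEH (limma adjusted p = 0.019) and had -0.27 ± 0.12 in KJ-PYR-9+DEX against DEX (0.0633). Of the 7 shared subunits 3 were called higher and 1 lower against vehicle, and of the 7 Pol II subunits 4 and 2. Over all genes 25.4% were called higher and 17.5% lower. The list medians were 0.39 and 0.36, against 0.30 for the Pol III genes and 0.06 for all genes. Values in this paragraph and the next are without removal of GC content and length trends. With the trends removed, 3086 genes instead of 5835 were called in KJ-PYR-9 against VEH. In KJ-PYR-9+DEX against DEX it was 4027 instead of 9351.

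Of 20 Pol III transcripts listed, 7 were tested in the inhibitor experiment. In KJ-PYR-9 against VEH 3 of the 7 rose and 1 fell, against 25.4% and 17.5% of all genes. In KJ-PYR-9+DEX against DEX 4 rose and 1 fell, against 33.6% and 35.1% of all genes. RN7SL1, the RNA of the signal recognition particle, had 1.21 ± 0.28 in KJ-PYR-9 against VEH and 1.19 ± 0.28 in KJ-PYR-9+DEX against DEX (limma adjusted p = 0.00778 and 0.00357). BCYRN1, a brain cytoplasmic RNA, had -2.44 ± 0.54 and -2.63 ± 0.54 in the same comparisons (limma adjusted p = 0.00613 and 0.00152). It rests on few reads, 16, 18 and 14 in the KJ-PYR-9 libraries and 10, 19 and 2 in the KJ-PYR-9+DEX libraries. Both RNAs have near identical copies in the genome, so their levels are uncertain. RN7SL1 measured 329692, 480637 and 614027 in VEH, but 404, 625 and 521 in VEH2. The cause of that gap was not tested. Steady levels of stable RNAs are no measure of Pol III activity over 3 h.

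**Figure D5:**
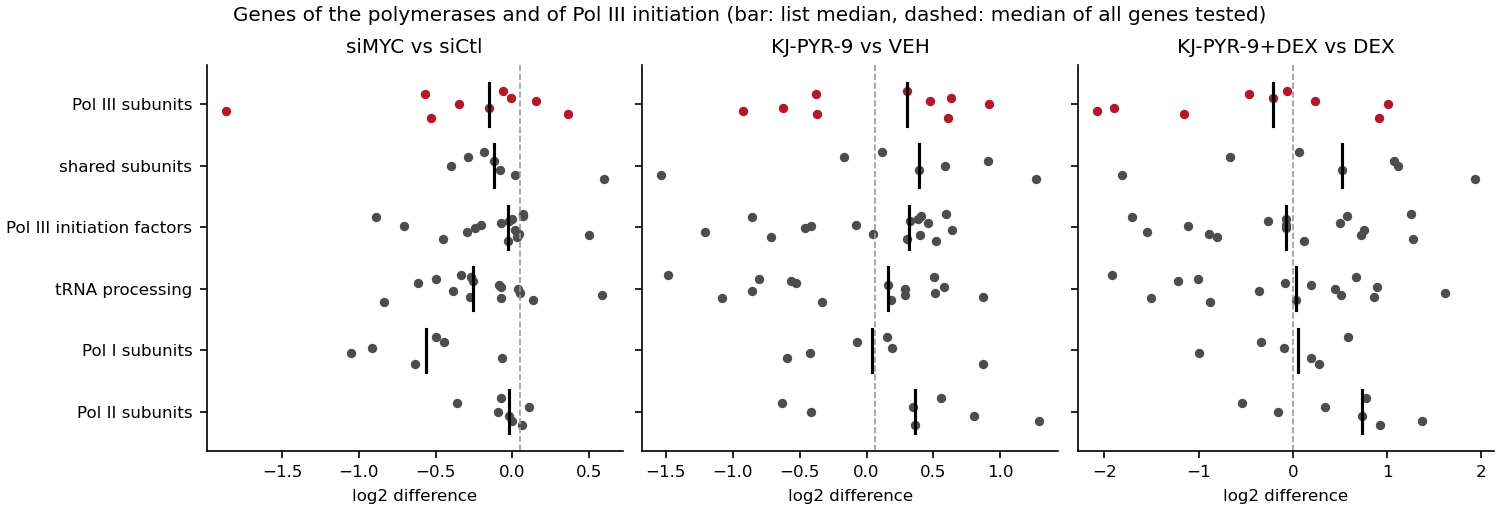
Log2 difference (horizontal axes) of every tested gene in 6 lists (rows) in 3 comparisons; each point is a gene, the short bar the list median and the dashed line the median of all genes tested. POLR3G is the lowest point among the Pol III subunits (red), the Pol I subunits have a median of -0.57 in siMYC against siCtl, and most lists have genes on both sides of 0 with KJ-PYR-9.

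By a fixed rule, the 5 protein-coding genes most like POLR3G over the 12 inhibitor libraries were SUCLG2 (Pearson r of 0.99), NDFIP1, TMEM14B, NOL10 and ZDHHC2 (0.98 each), among 10388 genes compared. Those most like POLR3GL were SMYD2 (0.95), SNX25 and HNRNPH1 (0.93 each), QRSL1 and CBR3 (0.92 each), among 10389. The libraries fall into 4 groups and share the trend with GC content, so these values describe the pattern over the groups and carry no test.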

How the data were processed

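RNA of BT549 cells was depleted of ribosomal RNA and sequenced as paired reads, per the labels' protocols. The deposited signal is a normalized read count per gene, in 1 table per library. Per the submitters' processing notes, bcl2fastq, featureCounts, DESeq2 and SAMtools were used, on GRCh38. The aligner, annotation, strandedness and versions are not given in the sources used here. Values of repeated symbols were summed. The 3 tables were normalized separately and held 15665, 17796 and 10048 genes. Features without a symbol were left out. They held 26.04% of the reads of DEX 1, the shallowest inhibitor library, and at most 8.722% in any other library. Without DEX 1, 865 genes instead of 2386 were called in DEX against VEH. The members and gene lists were chosen with earlier results of these data known, and named genes are the members, genes of these lists and the 5 genes most like POLR3G and POLR3GL; genes whose exons overlap a member were added after their values were seen.

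Tests were two-sided and used limma 3.58.1 (R 4.3.3) on log2(value + 1) of genes with a mean of at least 10. P-values were adjusted over all genes tested by Benjamini-Hochberg, with a threshold of 0.05; a log2 difference on this scale understates changes of low genes. The 12 inhibitor libraries shared 1 fit. Tests were tried on simulated data. Deposited values of all 3 tables were whole multiples of a per-library step within a tolerance of 0.0001 (100.0% of values), so reads could be recovered and were tested with edgeR 4.0.16 and DESeq2 1.42.0 as alternatives; edgeR called 2922 genes in the knockdown and 7061 in KJ-PYR-9 against VEH. GC content and length came from the longest coding GENCODE transcript (16754 of 18151 symbols, 9 of 9 members), and their trends were removed per library with mgcv 1.9.3. Libraries that share a replicate number were checked by the correlation of their deviations from the group means. The 18 pairs of the inhibitor experiment had 0.13 to 0.524 and the 3 of the MB-3 experiment 0.208 to 0.389, which was taken as pairing. This comes from the data, since the labels give only replicate numbers. The main limma tests and the main permutation test leave the pairing out. Tests with the replicate number as a block are given as alternatives, and some calls differ between the forms. The 3 pairs of the knockdown had -0.346 to -0.02 and were not taken as paired. Library MB3 1 has a title that reads MED3 and a treatment label that reads MB3. Depth is given with the results.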

Additional observations from a re-analysis of the deposited data

Results flagged for a closer look

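The KJ-PYR-9 effect on POLR3C differed with DEX by a test of the difference itself: the effect with DEX minus that without was -0.84 on the log2 scale (limma adjusted p = 0.0143). POLR3C had -0.21 in KJ-PYR-9+DEX against DEX and 0.63 in KJ-PYR-9 against VEH. The call of the difference shares its VEH libraries with the POLR3C calls in KJ-PYR-9 against VEH and in DEX against VEH.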

How the results depend on the processing

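Of 872 values of single subunit genes under alternatives, 803 kept their side of the threshold or, without a test, stayed within the spread. A change of sign without a call in either setting counts among these. An example is POLR3G in KJ-PYR-9 against VEH, at 0.05 against -0.93 with GC content and length trends removed. Of the other values, 16 lost and 41 gained a call, and 11 without a test moved beyond the spread. A called gene changed sign in 1 value, POLR3B in KJ-PYR-9+DEX against DEX, which came to 0.022 with GC content and length trends removed. The same step reversed the KJ-PYR-9 effect on the POLR3G to POLR3GL ratio, to 0.51 against -0.74; it was chosen after seeing the data for the ratios. The cause was not tested. In the calls over all genes it gave 3086 against 5835 in KJ-PYR-9 against VEH, 4027 against 9351 in KJ-PYR-9+DEX against DEX, 1218 against 2386 in DEX against VEH, and 12 against 6 in MB3 against VEH2. The replicate block gave 5925 in DEX against VEH, 4399 against 2283 for the interaction, 14 in MB3 against VEH2 and 470 against 2386 in siMYC against siCtl, whose numbers did not pair. DESeq2 gave 3737 in DEX against VEH and 3782 in siMYC against siCtl (2020 higher and 1762 lower, against 1679 and 707), and in MB3 against VEH2 it gave 154, edgeR 16 and trended, robust variances 11. TMM scaling moved the median of all genes by at most 0.092 and gave 1374 higher and 944 lower in siMYC against siCtl, 2970 and 3038 in KJ-PYR-9 against VEH, and 1175 and 1031, against 973 and 1310, for the interaction.

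In KJ-PYR-9 against VEH, 4 subunit genes were called as reported, 8 with DESeq2 or the replicate block, and 7 with edgeR, a minimum mean of 50 or only the 6 libraries compared. In DEX against VEH, 1 was called as reported, 3 with DESeq2, edgeR, the replicate block or only 6 libraries, and 2 with a minimum mean of 50, a pseudocount of 5 or trended variances. For the interaction 1 was called as reported, 2 with DESeq2 or GC content and length trends removed, and 3 with the replicate block. Beyond the calls given with the results, the block changed no call of a subunit gene.

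Leaving out 1 library at a time gave 865 to 3620 genes in DEX against VEH with 1 to 2 subunit genes, 3393 to 5433 in KJ-PYR-9 against VEH with 2 to 4, 1469 to 2731 for the interaction with 1 to 2, 1 to 3 in MB3 against VEH2 with 0, and 432 to 3983 in siMYC against siCtl. The ratio effect of KJ-PYR-9 ranged from -0.85 to -0.63 and that of siMYC from -2.73 to -1.92. The ratio was not run for MB-3, since POLR3GL was not analysed in that table. The ratio rests on 9 to 145 reads of POLR3GL per library; with a pseudocount of 5 the KJ-PYR-9 effect was -0.76.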
